A study of Mus musculus with 6 samples.

Results

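The genes described here encode the proteins of the cytosolic ribosome. They were taken from the array annotation as every gene whose single platform symbol follows the pattern Rpl or Rps plus a number, with Rplp0, Rplp1, Rplp2 and Rpsa added and the Rps6 kinase genes left out. For a gene with several probe sets the brightest over the 6 samples was kept, which gave 48 genes of the 12393 measured, 24 of the large subunit, 22 of the small subunit and 2 of the acidic stalk. Another 27 ribosomal protein symbols occur only on probe sets that the annotation also assigns to other genes, and these are treated as a group without gene names. Expression was measured with 1 Affymetrix Mouse430a array per sample in mouse CD4+CD25+ cells labelled as regulatory T cells, on a C57BL6 background. The 3 Hdac3 deleted samples have floxed Hdac3 alleles together with a Foxp3 Cre (genotype HDAC3-fl/fl_FOXP3cre), and the other 3 samples are labelled wild type, with no Cre or floxed allele named; ages are not given. Foxp3 marks the regulatory T cell lineage, so a Cre under its control would delete Hdac3, a histone deacetylase, in that lineage. The labels do not say which promoter drives the Cre beyond its name, nor whether the samples came from separate animals. The p-values therefore measure only how these 3 and 3 samples varied, and that variation could be technical. One label field of the deleted samples names Hdac11 and another has the form HDACII, while the title and genotype name Hdac3.

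The cytosolic ribosome joins a small subunit, which reads the messenger RNA, to a large subunit, which forms the peptide bond, and nearly all of its proteins are present in a single copy per ribosome. Messenger RNAs of ribosomal proteins begin with a cytosine followed by a run of pyrimidines, the terminal oligopyrimidine tract, through which the mTOR kinase and the RNA-binding protein Larp1 control their translation as a group. Resting lymphocytes hold few ribosomes and make many more when they are activated.

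Start sites from RefSeq are shown for 8 of these genes to let the pyrimidine tract be seen beside the expression values. They comprise 4 genes that fell on every scaling tried (Rps6, Rpl39l, Rpl22l1, Rps9), the partner of Rpl39l (Rpl39), a gene whose probe sets fell by very different amounts (Rpl13a), and 2 of the brightest genes (Rplp2, Rpl38). Each runs from 50 bases before to 30 bases after the annotated start on GRCm38.p6, and capitals mark the longest unbroken run of C and T within 30 bases of the start on the transcribed strand.
Rps6 (chr4:86857338-86857417, minus strand): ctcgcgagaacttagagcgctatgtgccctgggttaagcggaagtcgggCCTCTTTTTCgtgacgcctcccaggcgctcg
Rpl39l (chr16:10170178-10170257, plus strand): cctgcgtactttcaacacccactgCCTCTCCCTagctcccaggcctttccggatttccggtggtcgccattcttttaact
Rpl39 (chrX:37085193-37085272, minus strand): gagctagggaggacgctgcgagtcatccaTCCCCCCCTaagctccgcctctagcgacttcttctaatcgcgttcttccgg
Rpl22l1 (chr3:28805458-28805537, plus strand): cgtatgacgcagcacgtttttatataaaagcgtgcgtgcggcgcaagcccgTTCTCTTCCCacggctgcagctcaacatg
Rps9 (chr7:3703991-3704070, plus strand): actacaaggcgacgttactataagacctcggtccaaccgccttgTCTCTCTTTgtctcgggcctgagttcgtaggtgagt
Rpl13a (chr7:45128716-45128795, minus strand): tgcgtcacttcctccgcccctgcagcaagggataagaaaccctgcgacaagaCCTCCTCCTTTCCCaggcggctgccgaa
Rplp2 (chr7:141447601-141447680, plus strand): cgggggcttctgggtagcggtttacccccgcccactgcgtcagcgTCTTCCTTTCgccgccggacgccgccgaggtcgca
Rpl38 (chr11:114668530-114668609, plus strand): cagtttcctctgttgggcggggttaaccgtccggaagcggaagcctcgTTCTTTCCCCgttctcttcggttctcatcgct
The run starts at or within 6 bases of the annotated start in Rps6, Rpl22l1, Rps9, Rpl13a, Rplp2 and Rpl38, and it begins 26 bases before the start in Rpl39l and 21 bases before it in Rpl39. The RefSeq table held 50 start windows for 42 of the 48 genes. A run of at least 8 pyrimidines within 30 bases of the start was present in 25 of these 50 windows (50%) and in 22.9% of all 32851 windows. The letters CCGGAAG, read on either strand over the whole 300 bases and without regard to other motifs, were found in 21 of the 50 windows (42.0%) and in 8.86% of all windows. Such matches are a description of the letters and not of a bound site. Rplp2 and Rpl38, with near-zero differences on the deposited scale, carry a run of the same length, 10 bases, as Rps6 and Rpl22l1, which fell. Other scalings called Rplp2 and Rpl38 lower or higher, as given below, and any part of the run in the differences was not tested.

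The deleted preparations differed from wild type in much more than these genes, and all 3 share that difference. All 10 macrophage markers and all 7 measured neutrophil markers rose. The macrophage list averaged 12.78 to 12.81 (log2) in Hdac3 deleted samples and 5.29 to 5.45 in wild type, where 5 of its 10 markers lay in the background range. The neutrophil list averaged 11.74 to 11.75 in Hdac3 deleted samples and 4.63 to 5.01 in wild type, where 5 of 7 lay in that range. All 7 T cell markers fell, and the 4 CD3 genes averaged 10.75 ± 0.017 in Hdac3 deleted samples and 12.22 ± 0.043 in wild type (SD, n = 3 each). The B cell list averaged 5.60 to 5.66 in Hdac3 deleted samples and 5.40 to 5.57 in wild type, with 1 of 4 measured markers called. Background here is the range of 27 bacterial control probe sets, 2.37 to 5.16. Of 4 regulatory T cell markers (Foxp3, Il2ra, Ctla4 and Ikzf2), only Foxp3 lay inside it, in both groups. In that list 1 gene was lower and 1 higher (beside 38.8% and 22.4% of all genes). The list averaged 7.53 to 7.59 in Hdac3 deleted samples and 7.70 to 7.87 in wild type. Hdac3 itself averaged 8.49 in Hdac3 deleted samples and 9.04 in wild type, a difference of -0.55. The place of that probe set relative to the floxed exons is not known here, so this value does not check the deletion. In pooled RNA, fewer cells of a type and less RNA per cell cannot be told apart, and the part of the myeloid signal in the ribosomal protein values below was not tested.

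Ribosomal protein transcripts were among the brightest on the arrays. Of the 65 genes with a mean level over 13 (log2), 33 were ribosomal protein genes, although levels of different probe sets can be compared only loosely. The highest value of any probe set was 14.61. Rplp2, a protein of the acidic stalk, measured 14.45, 14.47 and 14.41 in Hdac3 deleted samples and 14.46, 14.45 and 14.42 in wild type. The groups overlapped, with a difference of -0.0054 (95% interval -0.12 to 0.11, limma adjusted p = 0.930), but median centring called it lower (-0.17, adjusted p = 0.0190) and cyclic loess higher (0.24, adjusted p = 0.00518). Rps29 and Rpl38, the other 2 of the 3 brightest members, differed by -0.013 (-0.13 to 0.10) and -0.041 (-0.16 to 0.08), and both were likewise called lower with median centring (-0.17 and -0.20) and higher with cyclic loess (0.23 and 0.20). At the other end Rpl3l, a striated muscle form of Rpl3, lay inside the background range in all 6 samples, so 47 of the 48 genes had a readable level in at least 1 group. Replicates lay close together, with a median SD of 0.038 in Hdac3 deleted samples and 0.035 in wild type. The exceptions past an SD of 0.2 were Rpl39l and Rpl27a. Rpl27a ranged over 9.90, 9.45 and 10.22 in Hdac3 deleted samples and 10.65, 10.08 and 9.31 in wild type, which overlap, and it differed by -0.15 with an interval of -0.98 to 0.67.

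**Figure D1:**
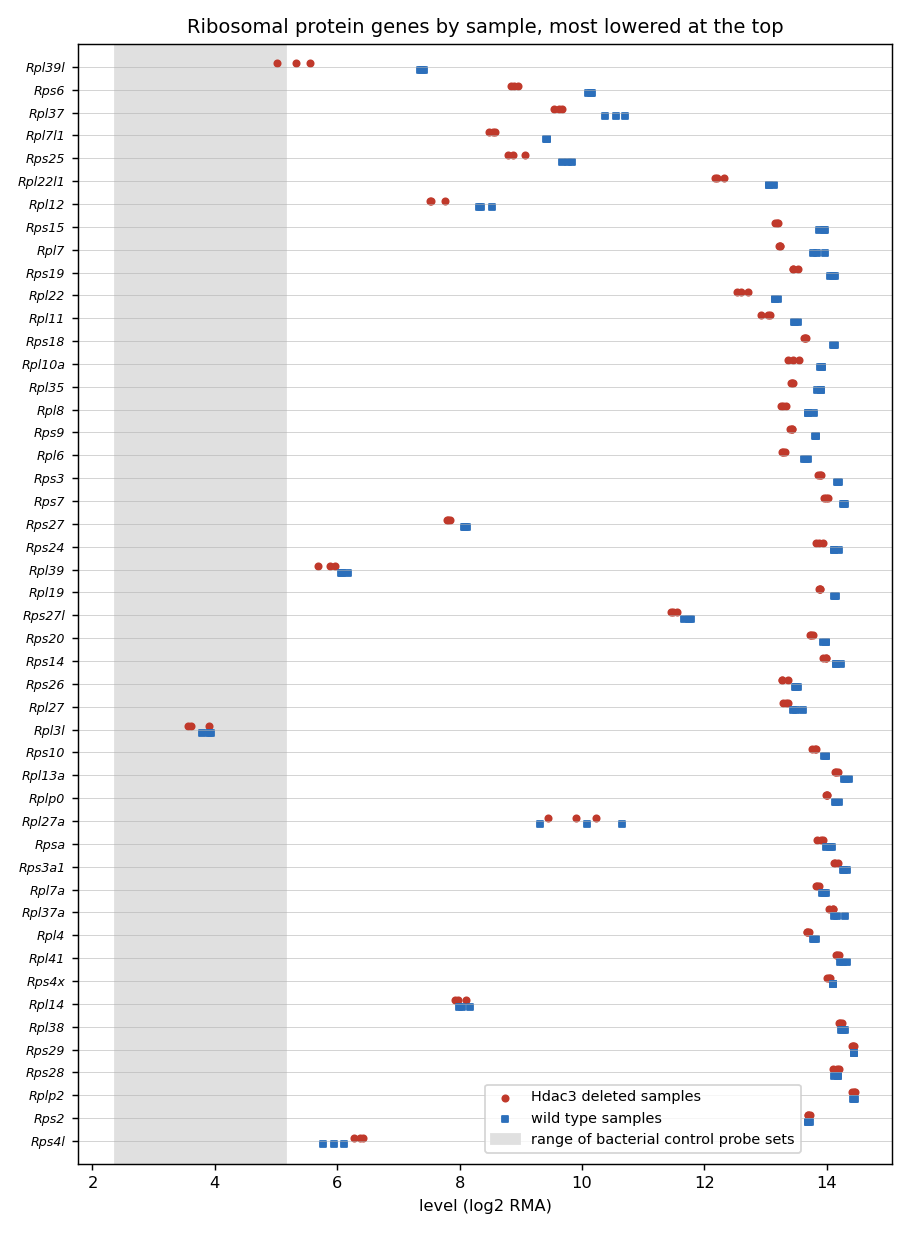
Level of each of the 48 ribosomal protein genes (log2 RMA, horizontal axis) in the 3 Hdac3 deleted samples (red circles) and the 3 wild type samples (blue squares), ordered by difference, with the background range shaded. Rpl39l stands furthest to the left of its wild type values, and the genes near 14 lie close together in both groups.

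On the deposited scale 33 of the 48 genes (68.8%) were lower in Hdac3 deleted samples at adjusted p 0.05, beside 38.8% of all genes, and 1 was higher, beside 22.4% of all genes. The median difference was -0.24, where the median over all genes was -0.17. It was -0.15 after repeated quantile normalization (all genes -0.14), -0.40 with median centring (all genes -0.33) and -0.025 with cyclic loess (all genes 0.0015). Repeated quantile normalization gave 24 lower and 1 higher (beside 39.9% and 21.7% of all genes), and median centring gave 46 lower and 1 higher (beside 58.3% and 17.8%). A fall of at least 2-fold was seen in 2 genes, beside 4.46% of all genes, and a rise of that size in none, beside 9.04%. The 3 values of each group did not overlap in 40 of the 48, beside 67.4% of all genes. Most of the 48 are among the 1240 brightest genes. Of those 1240 genes, 1108 did not overlap, 652 (52.6%) were lower and 339 (27.3%) higher. The per-sample median over the 48 genes was 13.44, 13.48 and 13.43 in Hdac3 deleted samples and 13.85, 13.84 and 13.91 in wild type. This gap on the deposited scale was larger than the spread within either group. The medians over all probe sets also separated by group, in the other direction. They were 6.43 to 6.47 in Hdac3 deleted samples and 6.28 to 6.29 in wild type.

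The calls depended on the scaling. Cyclic loess left 17 of the 48 genes lower and made 7 higher (beside 23.5% and 30% of all genes), and 21 genes changed sign in at least 1 of the 3 rescalings. The 17 genes were lower at adjusted p 0.05 on the deposited scale and under all 3 rescalings (35.4%, beside 23.5% of all genes). In order of their difference they were Rpl39l, Rps6, Rpl37, Rpl7l1, Rps25, Rpl22l1, Rpl12, Rps15, Rpl7, Rps19, Rpl22, Rpl11, Rps18, Rpl10a, Rpl35, Rpl8 and Rps9, the 17 largest falls on the deposited scale. Median centring shifts every gene alike, so which genes kept their direction follows largely from the size of the difference and is no separate test. Without probe sets ending in _x_at, _s_at or _a_at, 7 of the 17 genes had no probe set left, and of the 10 that did, 7 were lower. The other 3 were Rps9, at 0.85, Rps18, at -0.15 on a dim probe set, and Rpl35, whose remaining probe set lay in background. On the probe sets kept, Rpl39l differed by more than the mean of the 4 CD3 genes, -1.47, the only one of the 48 to do so. A dimmer Rpl13a probe set, described below, differed by -1.60.

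**Figure D2:**
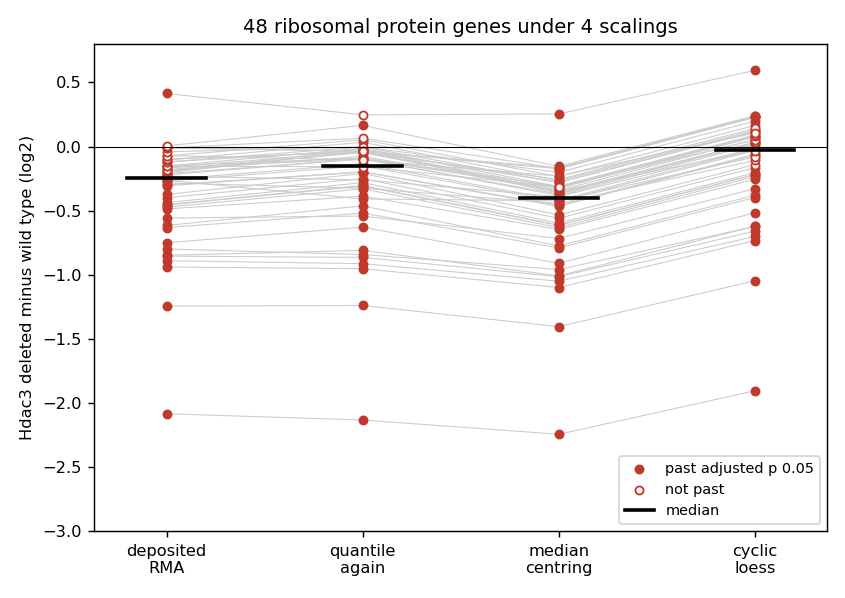
Difference, Hdac3 deleted minus wild type (log2), for the 48 genes as deposited and after 3 rescalings. Filled points passed adjusted p 0.05, bars are medians, and lines join a gene. The median moved between -0.40 with median centring and -0.025 with cyclic loess, where 7 genes were called higher (beside 30% of all genes).

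In the large subunit 16 of 24 genes were lower and none higher (beside 38.8% and 22.4% of all genes), with a median of -0.32. Cyclic loess gave 11 lower, 1 higher (beside 23.5% and 30%) and a median of -0.11. Rpl37, a small zinc-binding protein of the large subunit, measured 9.54, 9.61 and 9.68 in Hdac3 deleted samples and 10.56, 10.71 and 10.38 in wild type. The groups were well apart, by -0.94 (SE 0.092, limma adjusted p = 0.000105). Rpl37 has a single probe set, which ends in _x_at, so the gene drops out where such probe sets are left out. Rpl7, near the subunit interface, was at 13.23, 13.23 and 13.21 in Hdac3 deleted samples and 13.77, 13.83 and 13.96 in wild type. It was 1.55-fold lower (-0.63, limma adjusted p = 0.000139). Rpl11, which binds the ubiquitin ligase Mdm2 when ribosome assembly is disturbed, fell by 0.49. Rpl10a, which forms the mobile stalk where spent transfer RNA leaves, and Rpl8, which lies near the catalytic centre, fell by 0.45 and 0.44. Rpl35, at the mouth of the exit tunnel, fell by 0.45 on its brightest probe set. Rpl4 and Rpl7a gave no call, at -0.11 (adjusted p = 0.100) and -0.12 (adjusted p = 0.0776) in the same limma fit, with both called lower with median centring (-0.27 and -0.28) and above 0 but not called with cyclic loess (0.13 and 0.12).

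The stalk of the large subunit, which recruits elongation factors, is built from Rplp0, Rplp1 and Rplp2 with Rpl12 at its base, and Rplp1 is not among the genes analysed here. Rpl12 measured 7.52, 7.76 and 7.53 in Hdac3 deleted samples and 8.36, 8.32 and 8.53 in wild type. It was 1.74-fold lower (-0.80, limma adjusted p = 0.000260), on a single probe set of moderate brightness. Rplp0 was at 13.9997, 13.9962 and 13.9906 in Hdac3 deleted samples and 14.14, 14.20 and 14.13 in wild type. That difference of -0.16 passed on the deposited scale (limma adjusted p = 0.0282) but was 0.078 with cyclic loess (adjusted p = 0.226). The stalk genes therefore had unlike differences on probe sets of unlike brightness, and Rplp2 did not pass the test on the deposited scale.

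In the small subunit 16 of 22 genes were lower and 1 higher (beside 38.8% and 22.4% of all genes), with a median of -0.23 that was 0.0018 with cyclic loess. Cyclic loess gave 6 lower and 5 higher, the lower share being near the 23.5% of all genes. Rps6, the substrate of the S6 kinases downstream of mTOR, measured 8.84, 8.95 and 8.88 in Hdac3 deleted samples and 10.10, 10.15 and 10.16 in wild type. It was 2.37-fold lower, by -1.24 (SE 0.055, limma adjusted p = 2.05e-06). A second Rps6 probe set was higher by 0.53, but it was within background in every sample and gives no readable direction. Rps25, which in human cells supports translation from internal entry sites, measured 8.78, 9.07 and 8.87 in Hdac3 deleted samples and 9.84, 9.77 and 9.67 in wild type, with no overlap. Its difference was -0.85 (limma adjusted p = 0.000151), on a single probe set. Rps15 fell by 0.75, and Rps19, the gene most often mutated in human Diamond-Blackfan anaemia, fell by 0.61. Rps18 fell by 0.47. Rpsa, which also serves as a laminin receptor, differed by -0.15 (limma adjusted p = 0.0525), turning to 0.085 with cyclic loess.

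Several members are paralogs that replace or accompany a standard protein. Rpl39l, a form of Rpl39 known for its role in the testis, measured 5.02, 5.32 and 5.55 in Hdac3 deleted samples and 7.38, 7.35 and 7.41 in wild type. Wild type samples were tightly grouped and all above the deleted samples, of which 1 lay in the background range. Rpl39l was 4.24-fold lower, by -2.08 (SE 0.13, limma adjusted p = 1.00e-05), the largest fall of the 48 genes. Its partner Rpl39 differed by -0.26 (adjusted p = 0.0295) on a dim probe set near 6, and with cyclic loess by -0.081 (adjusted p = 0.393). Rpl22l1 and Rpl22 both fell. Rpl22 is required in mice for development of T cells with an alpha-beta receptor, and it restrains Rpl22l1. Rpl22l1 was at 12.18, 12.32 and 12.20 in Hdac3 deleted samples and 13.05, 13.14 and 13.05 in wild type, a difference of -0.85 (limma adjusted p = 2.52e-05). Rpl22 was at 12.53, 12.71 and 12.59 in Hdac3 deleted samples and 13.16, 13.16 and 13.20 in wild type, a difference of -0.56 (limma adjusted p = 0.000242).

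Rpl7l1, a protein related to Rpl7, differed by -0.89 on its brighter probe set and by -0.47 on the other. Rpl7 differed by -0.63 on its brightest probe set and by -0.51 and -0.37 on the others. Rps27l, which p53 induces, and Rps27 were lower by 0.23 and 0.28, and neither passed with cyclic loess (-0.012 and -0.11). Rps4l was the 1 gene called higher. It measured 6.27, 6.37 and 6.42 in Hdac3 deleted samples and 6.11, 5.77 and 5.94 in wild type, not overlapping, a rise of 0.41 (SE 0.096, limma adjusted p = 0.00805) that was 0.25 after repeated quantile normalization (adjusted p = 0.0655). Its partner Rps4x differed by -0.073 (adjusted p = 0.235), turning to 0.17 with cyclic loess (adjusted p = 0.0253) and to 0.054 after repeated quantile normalization. Differences between partners were not tested.

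Among the 15 genes over 14 the median difference was -0.15, among the 18 between 13 and 14 it was -0.39, and among the 15 at 13 or less it was -0.56, and the 3 medians were 0.09, -0.15 and -0.33 with cyclic loess. Over the 36 members above 11 the correlation across genes between mean level and difference was 0.51 (Pearson) and 0.67 (Spearman). Over all 48 it was 0.32 and 0.50. Dim genes went both ways. Rpl39 (-0.26), Rps27 (-0.28) and Rps4l (0.41) had small or positive differences, while Rpl39l (-2.08), Rpl12 (-0.80), Rpl7l1 (-0.89) and Rps25 (-0.85) had large falls. Over all 488 genes above 11 the Spearman value was 0.0024. These points come from the same 6 arrays and are not independent, and the level includes the values that make the difference. The 32 other genes over 13 had 9 lower, 12 higher and a median of 0.07. The part that a limited range at the top of the scale plays was not tested.

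**Figure D3:**
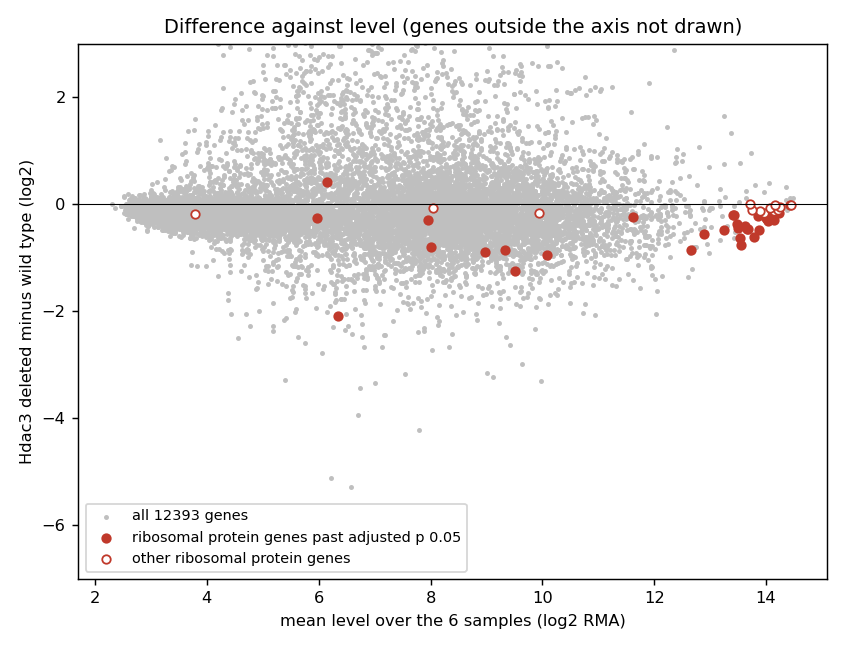
Difference, Hdac3 deleted minus wild type (log2), against mean level over the 6 samples for all genes (grey) and the 48 ribosomal protein genes (red, filled where adjusted p passed 0.05), with genes beyond the axis not drawn. Most ribosomal protein genes lie above 13, where those closest to the top of the scale have the smallest differences on this deposited scale.

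The 48 genes have 100 probe sets, 25 genes having 1 and 23 several. Over all of them 66 were lower (beside 37.4% of all probe sets) and 3 higher (beside 20.1%). A fall of at least 2-fold was seen in 5 (beside 4.33%) and a rise of that size in none (beside 7.91%). The groups did not overlap in 78 (beside 64.6%). For 19 genes at least 2 probe sets were above background, and in 17 of these every such probe set had the same sign on the deposited scale. Rpl13a, a protein that leaves the ribosome to silence inflammatory transcripts in interferon-treated human monocytes, has 4. On its brightest it was at 14.13, 14.15 and 14.18 in Hdac3 deleted samples and 14.32, 14.36 and 14.28 in wild type, a difference of -0.17. On its dimmest it was at 10.42, 10.49 and 10.41 in Hdac3 deleted samples and 12.08, 12.10 and 11.94 in wild type, a difference of -1.60. The other 2 gave -0.45 and -1.25, so the estimate for Rpl13a depends on the probe set, and every one was lower on the deposited scale. The brightest was not called after repeated quantile normalization (-0.097, limma adjusted p = 0.140) and turned to 0.074 with cyclic loess (adjusted p = 0.261). In 11 of the 19 genes the dimmest probe set had the more negative difference and in 8 it did not.

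The exceptions in direction were Rps29, whose values lay near 0, and Rps9, a protein near the channel where messenger RNA enters. The brightest Rps9 probe set measured 13.44, 13.39 and 13.42 in Hdac3 deleted samples and 13.82, 13.80 and 13.82 in wild type, a difference of -0.40, and a second gave -1.26. The dimmest measured 7.90, 7.90 and 7.93 in Hdac3 deleted samples and 7.08, 7.02 and 7.07 in wild type, a rise of 0.85. The direction of Rps9 therefore rests on which probe set is read.

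**Figure D4:**
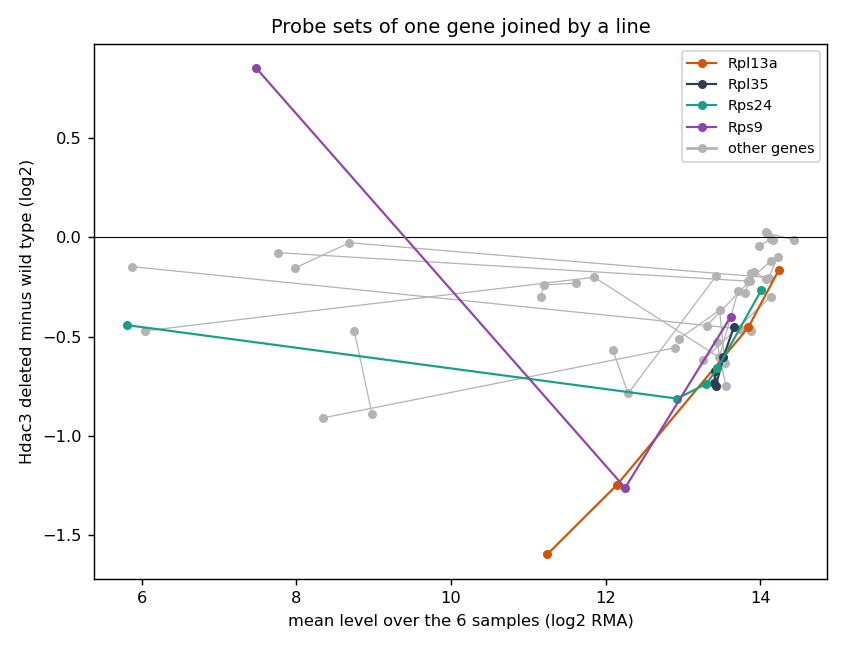
Difference, Hdac3 deleted minus wild type (log2), against mean level for probe sets above background of the 19 genes with at least 2, joined by gene. Rpl13a runs between -1.60 at its dimmest and -0.17 at its brightest probe set, and Rps9 crosses 0.

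Of the 102 probe sets that the annotation assigns to a ribosomal protein gene and other genes together, 72 were lower and 2 higher (beside 37.4% and 20.1% of all probe sets), with a median of -0.28 (all probe sets -0.17). They share the 6 arrays with the 48 genes and cannot be given to single genes. The array also carries control probe sets for the 18S RNA of the small subunit. The one at its middle measured 8.65, 8.48 and 8.98 in Hdac3 deleted samples and 10.22, 9.48 and 9.72 in wild type, a difference of -1.10 (limma adjusted p = 0.00288 over all probe sets with controls). The other 2 gave -0.60 and -2.01. Labelling that starts at polyadenylated ends reads this RNA only in part, and the part of that step in these values was not tested.

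The rest of the translation machinery was read from gene lists, beside 38.8% of all genes lower and 22.4% higher on the deposited scale, and 23.5% and 30% with cyclic loess. Of 13 measured genes of RNA polymerase I and its factors, which transcribe the ribosomal RNA precursor, 11 were lower and none higher, with a median of -0.57, and cyclic loess gave 9 lower and 1 higher with a median of -0.39. Taf1b, of the selectivity factor that recruits the polymerase, averaged 7.49 ± 0.084 in Hdac3 deleted samples and 8.72 ± 0.16 in wild type (SD, n = 3 each) and fell by 1.22. The subunits Polr1c and Polr1d fell by 0.83 and 0.80, and Ubtf, which marks active ribosomal DNA, fell by 0.73. Of 46 ribosome assembly genes 23 were lower and 7 higher, with a median of -0.21, and cyclic loess gave 15 and 11 with a median of -0.023. Emg1, a methyltransferase of the small subunit RNA, averaged 10.48 ± 0.028 in Hdac3 deleted samples and 11.59 ± 0.054 in wild type and fell by 1.12. Nip7, Rrp9 and Mak16, which act in the maturation of pre-ribosomes, fell by 0.89, 0.68 and 0.66.

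Of 30 initiation factor genes 19 were lower and 6 higher (cyclic loess 15 and 9). Eif3m and Eif3h, subunits of the factor that holds the small subunit, fell by 1.18 and 1.17, Eif1b by 0.98 and Eif3k by 0.80. Of 12 elongation and release genes 5 were lower and 3 higher, shares near those of all genes (cyclic loess 5 and 6), and the median of -0.070 turned to 0.14 with cyclic loess. Eef1e1, Eef1d, Eef1b2 and Abce1, which splits spent ribosomes, fell by 0.99, 0.93, 0.41 and 0.40. Of 19 other genes whose messages carry the pyrimidine tract 10 were lower and 2 higher, with a median of -0.23, and cyclic loess gave 9 and 7 with a median of 0.013. There were falls of 1.17 in Eif3h, 0.93 in Eef1d and 0.79 in Eif3e, and a rise of 0.88 in Vim, an intermediate filament gene also expressed in myeloid cells. The list overlaps the preceding ones. Of 21 growth control genes 5 were lower and 8 higher (cyclic loess 3 and 10), and the median of 0.037 turned to -0.030 after repeated quantile normalization and -0.12 with median centring. Eif4ebp1, the repressor of cap-dependent initiation, averaged 8.81 ± 0.019 in Hdac3 deleted samples and 7.58 ± 0.037 in wild type and rose by 1.23. Eif2ak4, the kinase that senses amino acid shortage, and Akt1 rose by 0.98 and 0.65, while Maf1, a repressor of RNA polymerase III, fell by 0.64. All 22 genes named from these lists kept their sign and their call under the 3 rescalings. They were picked for the smallest p on the deposited scale, so this follows largely from that choice and is no separate test. The rise of all 17 measured macrophage and neutrophil markers and the fall of all 7 T cell markers accompanied these differences, and their part was not tested.

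**Figure D5:**
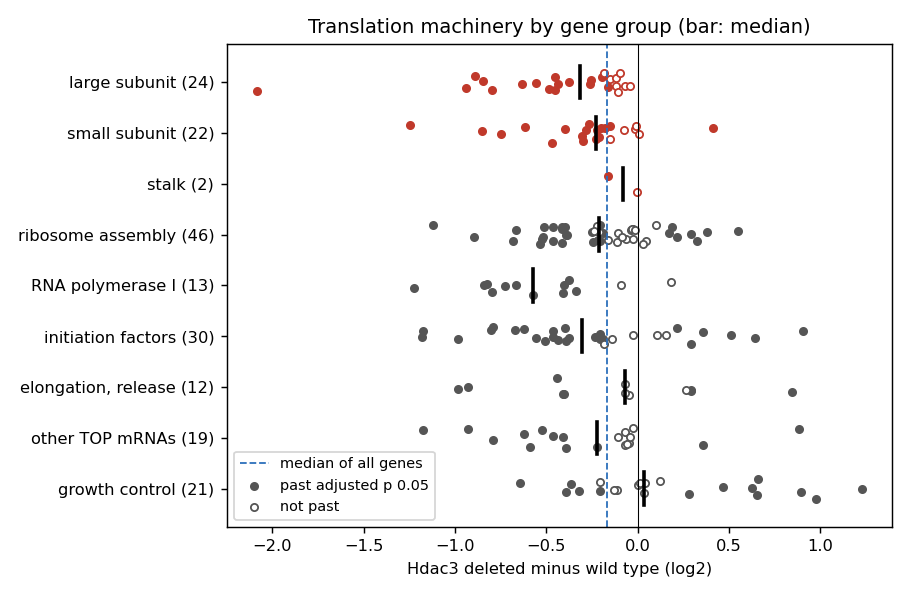
Difference, Hdac3 deleted minus wild type (log2, deposited scale), for genes of each group, with the number of measured genes in parentheses. Filled points passed adjusted p 0.05, bars are medians and the dashed line is the median of all genes, -0.17. The RNA polymerase I genes have the lowest median, -0.57, and it was -0.39 with cyclic loess.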

How the data were processed

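The authors deposited log2 values made by robust multiarray average with MAYDAY 2.12 and looked for changes by a Student's t statistic, per the labels' design text. RMA puts arrays on a common scale, so total RNA per cell is not measured. The deposited array medians still differed, 6.43 to 6.47 in Hdac3 deleted samples and 6.28 to 6.29 in wild type. Median centring subtracts that offset from every gene. Of 22690 probe sets, 64 controls were left out, and 20380 of the other 22626 had 1 platform symbol. All 48 members matched RefSeq (GRCm38.p6) by Entrez identifier. Titles gave the groups. Two-sided tests ran over all 12393 genes with limma 3.58.1 in R 4.3.3 (Benjamini-Hochberg, threshold 0.05), and over probe sets likewise. The procedure was checked on simulated data with independent noise and no shift between arrays, so that check does not bear on the scaling. Python 3.11.15, pandas 2.3.3 and matplotlib 3.10.9 served for summaries and figures. The 3 arrays per group limit the precision.

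Members and lists were chosen with earlier results of these data known. Named members are the 10 largest falls and rises past the threshold, the stalk genes and Rpsa, paralog pairs, the 3 brightest and 3 dimmest, and genes with disagreeing probe sets. Up to 4 genes per other list with the smallest p are named. Others, such as Rpl13a, Rpl11, Rpl27a, Rps18, Rpl10a, Rpl35, Rpl8, Rpl4 and Rpl7a, were chosen after their values were seen. Alternatives were the methods' t-test, a replicate block, 3 rescalings, a filter on dim probe sets, other priors, weights and probe set rules, and leaving out each sample.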

Additional observations from a re-analysis of the deposited data

Results flagged for a closer look

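Among probe sets outside the comparison, those assigned to a ribosomal protein gene together with other genes, 2 were higher in Hdac3 deleted samples with no overlap, against the direction of most of the set. One averaged 8.80 in Hdac3 deleted samples and 8.39 in wild type, a difference of 0.42 (limma adjusted p over all probe sets = 0.000714). The other averaged 8.86 in Hdac3 deleted samples and 8.46 in wild type, a difference of 0.40 (limma adjusted p = 0.00137). Which of their several genes they read is not known here.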

How the results depend on the processing

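Beside the reported 33 genes lower, 1 higher and a median of -0.24, the scaling moved the results most. The median was -0.15 after repeated quantile normalization, -0.40 with median centring and -0.025 with cyclic loess. Cyclic loess left 17 genes lower and 7 higher (beside 23.5% and 30% of all genes). Without probe sets ending in _x_at, _s_at or _a_at, 24 of the 48 genes were measured, 14 lower and 2 higher (beside 37.9% and 20.7% of all genes). Leaving out each sample gave 27 to 32 lower, 1 higher and medians of -0.27 to -0.23. The 27 lower without Hdac3 deleted replicate 1 stood beside 34.4% of all genes. Deviations of same-numbered samples correlated by 0.089, 0.065 and -0.20, and those of differently numbered samples by -0.25 to 0.22. With 3 samples per group these values cannot show whether equal numbers mark samples handled together. The replicate block gave 27 lower and 1 higher (beside 37.6% and 21.2% of all genes), and all 27 were among the 33. The methods' t-test gave 36 lower and 1 higher (beside 33.0% and 21.1% of all genes). Signs turned in several named genes. With cyclic loess these were Rplp0 (0.078), Rplp2 (0.24), Rpsa (0.085), Rps4x (0.17), Rpl38 (0.20) and Rps29 (0.23). Rps4x also turned after repeated quantile normalization (0.054). Rps9 turned without probe sets ending in _x_at, _s_at or _a_at (0.85), and Rps29 with probe sets averaged per gene (0.011). Rplp2 ranged from -0.019 to 0.011 with each sample left out. It turned without Hdac3 deleted replicate 3 (0.011) or wild type replicate 1 (0.0025). The cause was not tested. Of 373 values of 24 named genes, 331 kept sign and call. Rplp0 lost its call without any 1 sample other than wild type replicate 3 (limma adjusted p 0.0503 to 0.0813 where lost), and Rpl39 without Hdac3 deleted replicate 1 or 2 or wild type replicate 1 or 2 (0.0563 to 0.0885). Rpl3l, which lies in background, was called lower without Hdac3 deleted replicate 1 (-0.29). Rpsa was called lower under 5 alternatives, among them the methods' t-test and probe sets averaged per gene.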
